A study of Mus musculus with 25 samples.

Results

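The genes described here are the ligands, receptors, SMAD proteins and latent binding proteins of the TGF-beta superfamily in tumour preparations from mice given an antibody against CD73. They were taken by symbol from a table of 25006 genes. The rule covers Tgfb1 to Tgfb3 and their receptors, the Bmp, Bmpr, Acvr, Gdf, Smad and Ltbp symbols that carry a number or letter, and the activin and inhibin genes Inha, Inhba and Inhbb. It found 53 entries under 52 symbols, since Gdf1 is listed under 2 Ensembl IDs. A pair of these carry a matching symbol without being a ligand, receptor or SMAD: Bmp1 encodes a procollagen protease and Bmp2k a kinase. Of the 53 entries, 30 had a mean of at least 10 normalized counts over the 6 libraries and were tested, and 23 did not.

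Ligands of this family are secreted as dimers and bind a pair of type II and a pair of type I receptor kinases. The type II kinase activates the type I kinase, which then phosphorylates SMAD2 and SMAD3 for TGF-beta and activin, or SMAD1, SMAD5 and SMAD9 for most BMPs. These join SMAD4 and act on genes in the nucleus, while SMAD6 and SMAD7 restrain the signal. TGF-beta is stored outside cells in a latent complex bound to LTBP proteins, and in tumours it is known as a brake on cytotoxic T cells and a driver of fibroblast matrix production.

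Bulk RNA was sequenced from 3 anti-CD73 and 3 control libraries out of tumours of E0771, a mammary carcinoma line, grown in C57BL/6 mice. The antibody was given every 3 days. What the controls received, and the age, sex and number of mice, are not given in the labels. CD73 is the surface enzyme that makes adenosine from AMP, and the comparison asks which transcripts differ when it is targeted. The labels number the replicates without naming animals, so p-values measure the spread between these libraries, which may in part be technical. The other 19 of the 25 samples, spleen T cells in culture, were not analysed here.

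Libraries held 10180624 to 17161679 reads in genes. The labels call the material enriched CD8+ T cells, yet the 13 T cell and CD8 identity genes in the table together took 0.00316 to 0.00623% of reads in anti-CD73 libraries and 0.00169 to 0.00604% in controls. The 14 macrophage markers took 0.11 to 0.197% after anti-CD73 and 0.0637 to 0.124% in controls. The 5 erythroid markers in the table ran the other way, at 0.0682 to 0.252% after anti-CD73 and 0.0603, 0.43 and 0.457% in control replicates 1, 2 and 3. None of the T cell markers was at 0 in all libraries. The values below therefore describe mixed tumour material, in which fewer cells of a type and less RNA per cell cannot be told apart. Control replicate 1 stood apart from the other 2 controls, and values without it are given where they end or make a call or differ by over 1.5 times.

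Sequence upstream of 5 members is shown first, for the genes to which the results return below: Ltbp1, Acvr2a, Acvr1b, Tgfb1 and Inhba. Each is the stretch up to 250 bases before a RefSeq transcript start of build GRCm38.p6, on the gene's own strand and written 5′ to 3′. Capitals mark the SMAD-binding core CAGAC or its reverse complement GTCTG and the cyclic AMP response element TGACGTCA, which reads the same on both strands and is bound by CREB, a factor activated by cyclic AMP. The window of Ltbp1 is chr17:75005279-75005479 and stops where another transcript of the gene begins. That of Inhba lies inside the annotated gene, at an alternative start. Those of Acvr2a (chr2:48813859-48814108), Acvr1b (chr15:101173822-101174071), Tgfb1 (chr7:25686752-25687001) and Inhba (chr13:16011601-16011850) are all on the plus strand as well.
Ltbp1: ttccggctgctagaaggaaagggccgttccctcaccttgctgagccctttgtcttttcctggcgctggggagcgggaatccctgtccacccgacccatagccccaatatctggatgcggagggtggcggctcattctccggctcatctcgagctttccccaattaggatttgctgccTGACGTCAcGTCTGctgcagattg
Acvr2a: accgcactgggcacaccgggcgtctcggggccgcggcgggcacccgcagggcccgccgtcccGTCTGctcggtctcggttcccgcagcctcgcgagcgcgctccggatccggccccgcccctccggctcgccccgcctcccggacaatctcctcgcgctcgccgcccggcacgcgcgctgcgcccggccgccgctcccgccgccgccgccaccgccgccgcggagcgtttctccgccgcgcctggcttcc
Acvr1b: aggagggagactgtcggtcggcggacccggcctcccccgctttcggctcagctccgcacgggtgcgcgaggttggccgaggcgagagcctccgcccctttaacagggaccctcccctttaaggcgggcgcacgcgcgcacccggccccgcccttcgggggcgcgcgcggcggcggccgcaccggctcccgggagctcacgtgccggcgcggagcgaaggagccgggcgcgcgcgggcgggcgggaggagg
Tgfb1: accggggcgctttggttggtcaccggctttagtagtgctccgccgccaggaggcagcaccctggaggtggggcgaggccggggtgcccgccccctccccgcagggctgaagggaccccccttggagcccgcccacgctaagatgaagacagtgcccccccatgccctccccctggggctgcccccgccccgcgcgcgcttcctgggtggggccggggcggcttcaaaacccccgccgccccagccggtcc
Inhba: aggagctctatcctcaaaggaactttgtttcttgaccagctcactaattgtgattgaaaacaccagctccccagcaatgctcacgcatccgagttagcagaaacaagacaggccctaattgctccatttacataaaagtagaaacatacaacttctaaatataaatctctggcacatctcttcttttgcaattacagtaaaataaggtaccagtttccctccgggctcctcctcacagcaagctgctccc

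The Ltbp1 window held 1 cyclic AMP response element, beginning 73 bases before the start, and 1 SMAD core beginning 64 bases before it. The motifs did not overlap, and the start they are measured to lies past the end of the shortened sequence printed. A further Ltbp1 start in the table (window chr17:75178531-75178780, plus strand, not printed) had 2 SMAD cores and no cyclic AMP response element. The Acvr2a window held 1 SMAD core, beginning 188 bases before the start. The windows of Acvr1b, Tgfb1 and Inhba held no match to either motif. Those of Bmpr1a, Gdf11, Smad1 and Smad3, also read but not printed, held none either. Among 32851 mouse promoters in the same table, read over 250 bases, 1.55% held TGACGTCA and 42.2% held CAGAC or GTCTG. The Acvr2a, Acvr1b and Tgfb1 windows were rich in G and C (82, 78.8 and 75.2%), whereas that of Inhba had 43.2%, against a median of 52.4% over all promoters. A match is a stretch of letters and shows no binding.

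After anti-CD73, the type I receptor genes Acvr1b and Acvrl1 and the ligand genes Tgfb1, Tgfb3 and Gdf11 lay higher. The latent binding protein gene Ltbp1, the activin receptor gene Acvr2a and the inhibitory Smad7 lay lower. None of the 30 tested members passed the test in limma at an adjusted p of 0.05, as for all 12262 genes tested (0%). At an unadjusted p under 0.05 there were 6 higher and 4 lower members, where 8.69% of all genes were higher and 6.82% lower (15.5% in all). That count was 4 without anti-CD73 replicate 1 or 2 and 17 without control replicate 1, where 36.4% of all genes reached it. The share of all genes was not taken without anti-CD73 replicate 1 or 2, so the 4 has none to be read beside. Groups did not overlap for 12 of the 30 members, 5 higher and 7 lower, where this held for 11.5% and 12% of all genes (23.5% in all). The median log2 fold change was 0.02 over the members and 0.0039 over all genes tested, with 15 members above 0 and 15 below. The family thus had no common direction, and its members took 0.181 to 0.196% of reads in anti-CD73 libraries and 0.18 to 0.196% in controls. Calls of single members rest on which tool and which libraries are used. DESeq2 on recovered reads called 3 members (Acvr1b, Acvrl1 and Ltbp1), where it called 5.05% of all genes, and edgeR called 0 (0% of all genes), with 10 at an unadjusted p under 0.05 (15.2% of all genes). Without control replicate 1, limma called 7 members, a share close to the 22.2% of all genes that it called (11.9% higher and 10.3% lower). These were Acvr1b, Acvrl1, Gdf11 and Inhba, which rose, and Ltbp1, Ltbp4 and Smad7, which fell in that comparison. Without that library edgeR called 8 members (22% of all genes) and DESeq2 10 (21.8% of all genes), and 16 were at an unadjusted p under 0.05 in edgeR (36.2% of all genes).

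**Figure D1:**
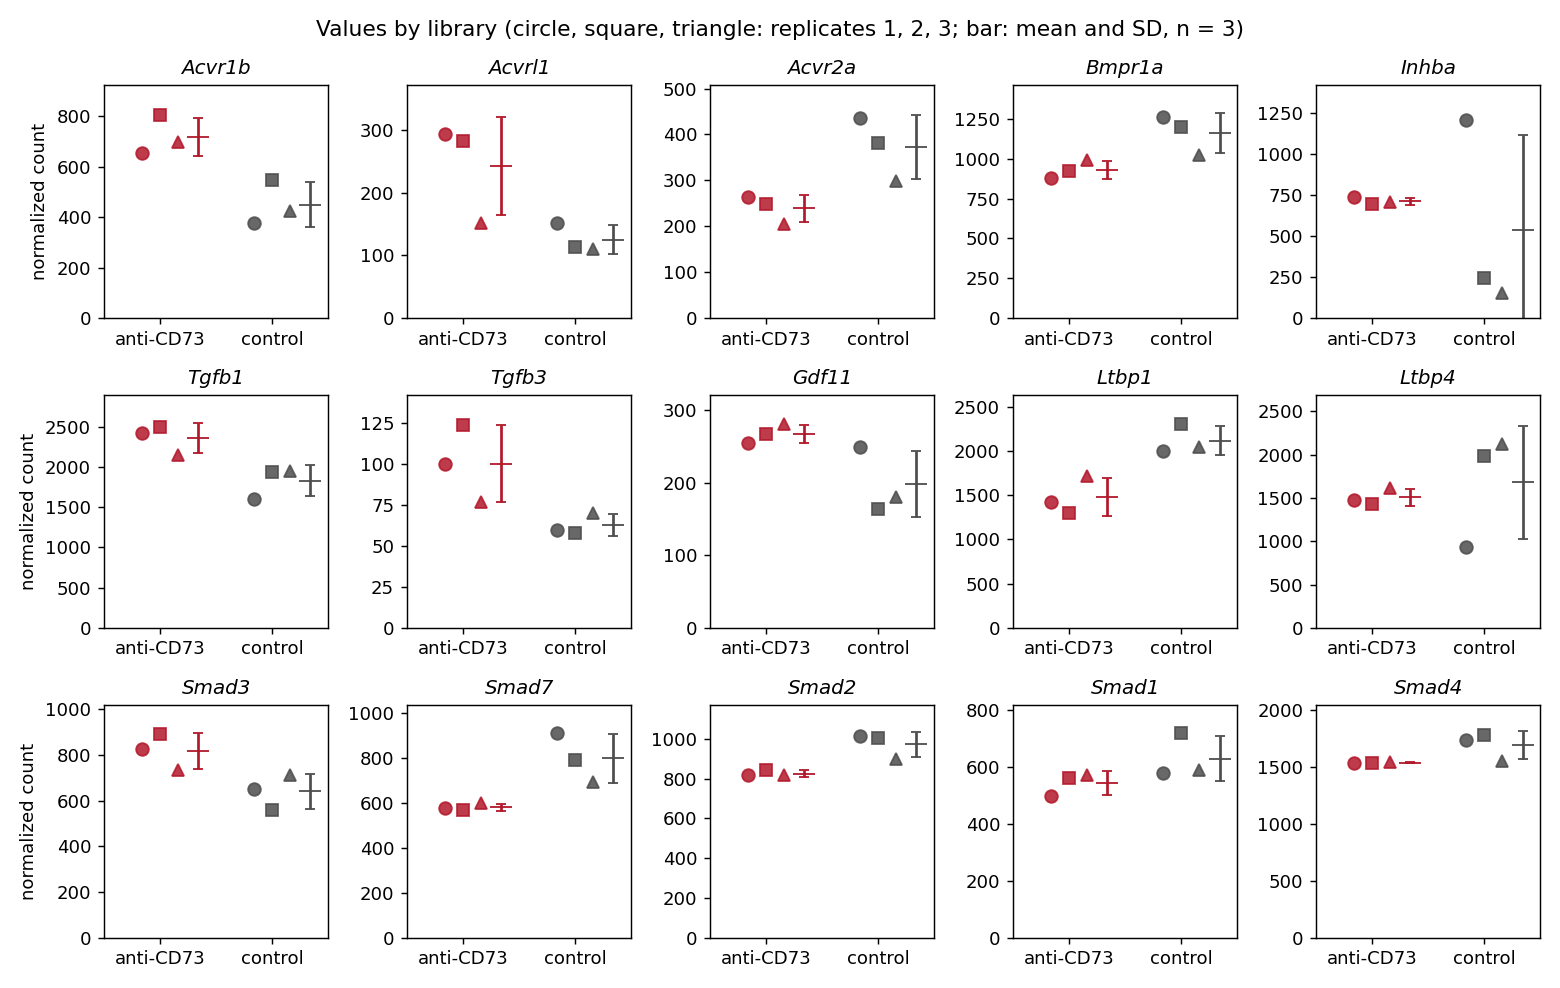
Normalized counts (y axis, from 0) of 15 members in each anti-CD73 library (red, left) and control library (grey, right), with the mean and SD of 3 libraries beside them; for Inhba the lower SD bar runs past the axis. In Acvr1b the 3 anti-CD73 libraries lie between 654.6 and 802.6, all above the controls, and in Inhba control replicate 1 at 1204 lies above every other library.

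Among the 3 TGF-beta ligands, Tgfb1 and Tgfb3 lay higher after anti-CD73 in every library, and Tgfb2 did not. Tgfb1, the isoform known for restraining T cells (ENSMUSG00000002603; chromosome 7, 25687002 to 25705077 in GRCm38.p6), stood at 2420, 2498 and 2144 normalized counts in anti-CD73 replicates 1, 2 and 3, against 1606, 1937 and 1948 in control replicates 1, 2 and 3. Its groups did not overlap, and the lowest anti-CD73 library was near the highest control. The means were 2354 ± 186 and 1831 ± 194 (SD, n = 3 each). Its log2 fold change was 0.36 (SE 0.12, limma adjusted p = 0.235), or 0.27 (adjusted p = 0.0524) without control replicate 1. Tgfb3, an isoform prominent in palate fusion and wound repair, stood at 100.4, 123.9 and 77.1 normalized counts after anti-CD73, against 59.9, 58.3 and 70.3 in controls. All anti-CD73 values were above all control values. A log2 fold change of 0.65 was fitted (SE 0.23, limma adjusted p = 0.252). Tgfb2 stood at 41.8, 69.9 and 40.1 normalized counts after anti-CD73, against 80.2, 58.3 and 26.2 in controls. These values were interleaved, and the log2 fold change was -0.02 (SE 0.44), turning to 0.32 without control replicate 1. In counts not corrected for transcript length, Tgfb1 made up 94 ± 1.07% of the counts of the TGF-beta ligands after anti-CD73 and 93.9 ± 1.7% in controls. The Tgfb3 share was 3.98 ± 0.598% after anti-CD73 and 3.24 ± 0.345% in controls (SD, n = 3 each).

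The latent binding proteins, most of which hold TGF-beta in the matrix, differed among themselves. At an unadjusted p under 0.05, 1 of 4 was lower and none higher, beside 6.82% and 8.69% of all genes. Ltbp1, the form that is joined to latent TGF-beta1 in most tissues (ENSMUSG00000001870; chromosome 17, 75005480 to 75392512), stood at 1424, 1297 and 1718 normalized counts in the anti-CD73 libraries, against 2000, 2303 and 2043 in controls. Every anti-CD73 library lay below every control, with means of 1480 ± 216 and 2116 ± 164 (SD, n = 3 each). Limma gave a log2 fold change of -0.52 (SE 0.14, adjusted p = 0.178), and DESeq2 gave an adjusted p of 0.0356. The value was -0.56 (limma adjusted p = 0.0132) without control replicate 1. Ltbp4, needed for elastic fibres, stood at 1478, 1428 and 1611 normalized counts after anti-CD73, against 928, 1989 and 2120 in controls. Control replicate 1 was the lowest library and controls 2 and 3 the highest. Its log2 fold change was -0.07 (SE 0.30) with all libraries, 0.15 without control replicate 3 and -0.45 (limma adjusted p = 0.00787) without control replicate 1. Ltbp3 stood at 55.8, 76.2 and 42.2 normalized counts after anti-CD73, against 25.4, 59.5 and 68.1 in controls. Its log2 fold change of 0.26 (SE 0.41) became -0.17 without control replicate 1. Ltbp2, which does not bind latent TGF-beta, had 6 to 17 reads in 5 of the libraries and a log2 fold change of 0.61 (SE 0.38).

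Of the 21 BMP and GDF entries, 4 were tested, and all 4 had log2 fold changes above 0 in limma, as did 6197 of all 12262 genes. In edgeR and DESeq2 Gdf3 lay below 0. Gdf11, a ligand that signals through activin receptors (ENSMUSG00000025352; chromosome 10, 128880524 to 128891718), stood at 254.8, 266.8 and 280.7 normalized counts after anti-CD73, against 249.8, 163.4 and 181.1 in controls. Control replicate 1 was close below the anti-CD73 libraries, and the groups did not overlap. Limma gave a log2 fold change of 0.45 (SE 0.19, adjusted p = 0.31), and 0.63 (adjusted p = 0.0108) without control replicate 1. Gdf15, a stress-induced cytokine that acts through the receptor GFRAL, stood at 1313, 994 and 1702 normalized counts after anti-CD73, against 1606, 979 and 857 in controls. The groups overlapped, with a log2 fold change of 0.24 (SE 0.28). Its groups were apart, at 0.51 (limma adjusted p = 0.0848), without control replicate 1, and without anti-CD73 replicate 3 it was 0.049. Bmp7 stood at 90.2, 50.8 and 37.0 normalized counts after anti-CD73, against 7.11, 74.8 and 26.2 in controls, the lowest value resting on 7 reads (95% Poisson interval 2.81 to 14.4, counting error only). Its log2 fold change was 1.14 (SE 0.77) in limma, 0.78 in edgeR and 0.74 in DESeq2, and in limma 0.31 without control replicate 1. Gdf3 had 3 to 16 reads in 5 libraries and 38.6 normalized counts in control replicate 1. Its log2 fold change was 0.07 (SE 0.77) in limma, -0.40 in edgeR and -0.42 in DESeq2, and in limma 0.89 without control replicate 1.

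Inhba, which encodes the subunit of activin A, was the member in which control replicate 1 departed most from the other controls. Its gene (ENSMUSG00000041324) lies on chromosome 13, 16004256 to 16031609. It stood at 734.6, 693.5 and 706.4 normalized counts in the anti-CD73 libraries, against 1204, 242 and 153 in control replicates 1, 2 and 3. The anti-CD73 libraries were nearly level, while control replicate 1 was above them and the other controls below. The log2 fold change was 1.00 (SE 0.67, limma adjusted p = 0.515) with all libraries, a value that depends on the method, since edgeR gave 0.44 and DESeq2 0.42 for the same libraries. Without control replicate 1 it was 1.88 (SE 0.17, adjusted p = 0.00127), and without control replicate 3 it was 0.40. Macrophage markers were also higher in control replicate 1 (0.124% of reads) than in controls 2 and 3 (0.0766 and 0.0637%), and took 0.161, 0.197 and 0.11% in anti-CD73 replicates 1, 2 and 3. All 14 of these markers had log2 fold changes above 0, with none at 0 in all libraries, and their part in the Inhba result was not tested. Inhbb, the subunit of activin B, had 5, 5 and 14 reads after anti-CD73 and 5, 11 and 15 in controls, and Inha, the inhibin subunit, had none.

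The type I receptors split in direction. At an unadjusted p under 0.05, 2 of the 5 tested were higher and 1 lower, beside 8.69% and 6.82% of all genes. Acvr1b, the activin receptor kinase ALK4 (ENSMUSG00000000532; chromosome 15, 101174072 to 101213684), stood at 654.6, 802.6 and 698.2 normalized counts after anti-CD73, against 377.7, 547.3 and 422.8 in controls. The groups did not overlap, with means of 718 ± 76.0 and 449 ± 87.9 (SD, n = 3 each). The log2 fold change was 0.69 (SE 0.17, limma adjusted p = 0.166), the smallest p of any member, and DESeq2 gave an adjusted p of 0.0181. Without control replicate 1 it was 0.57 (limma adjusted p = 0.0191). Acvrl1, the kinase ALK1 of endothelial cells (ENSMUSG00000000530; chromosome 15, 101128522 to 101145336), stood at 292.9, 282.7 and 152.2 normalized counts after anti-CD73, against 152.3, 114.0 and 109.3 in controls. Anti-CD73 replicate 3 and control replicate 1 met at the same level, so the groups just overlapped. The log2 fold change was 0.91 (SE 0.28, limma adjusted p = 0.214), with a DESeq2 adjusted p of 0.0473, and 1.05 (limma adjusted p = 0.0234) without control replicate 1. It ranged from 0.74 to 1.21 with a library left out.

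Endothelial markers also lay higher. The 9 endothelial markers took 0.0119, 0.0144 and 0.00932% of reads after anti-CD73, against 0.0092, 0.00543 and 0.00461% in controls, so that anti-CD73 replicate 3 and control replicate 1 were again near each other. All 6 tested endothelial markers had log2 fold changes above 0, with a median of 0.77, none was at 0 in all libraries, and their part in the Acvrl1 result was not tested. Acvrl1 and Acvr1b are neighbours on chromosome 15, the start of Acvr1b lying 28736 bases past the end of Acvrl1, with only the microRNA gene Mir6962 between them in RefSeq.

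The remaining type I receptors lay lower or level. Bmpr1a, the BMP receptor ALK3, stood at 879.6, 926.4 and 992.3 normalized counts after anti-CD73, against 1264, 1202 and 1025 in controls. The groups did not overlap, and the log2 fold change was -0.31 (SE 0.12, limma adjusted p = 0.292). Tgfbr1, the TGF-beta receptor kinase ALK5, stood at 406, 438 and 409 normalized counts after anti-CD73, against 782, 454 and 380 in controls. Only control replicate 1 was high, and the log2 fold change of -0.29 (SE 0.26) became 0.0085 without it. Acvr1, the kinase ALK2, had a log2 fold change of -0.15 (SE 0.15).

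Among the 4 type II receptors, Acvr2a lay lower and the others did not separate. Acvr2a, which binds activins and several BMPs (ENSMUSG00000052155; chromosome 2, 48814109 to 48903264), stood at 263.1, 248.8 and 205.7 normalized counts after anti-CD73, against 436.6, 381.4 and 298.6 in controls. Every anti-CD73 library was below every control. The means were 239 ± 29.9 and 372 ± 69.5 (SD, n = 3 each), with a log2 fold change of -0.63 (SE 0.19, limma adjusted p = 0.196). Its close relative Acvr2b stood at 105, 115 and 158 normalized counts after anti-CD73, against 60.9, 127 and 109 in controls, with a log2 fold change of 0.39 (SE 0.31) that was 0.079 without control replicate 1. Tgfbr2, the TGF-beta binding kinase, stood at 477, 571 and 419 normalized counts after anti-CD73, against 447, 435 and 349 in controls. Its groups overlapped (log2 fold change 0.25, SE 0.17, limma adjusted p = 0.515). Bmpr2 stood at 957, 1164 and 1215 normalized counts after anti-CD73, against 1128, 1176 and 876 in controls (log2 fold change 0.07, SE 0.16, and 0.12 without control replicate 1). Tgfbr3, the co-receptor betaglycan that presents TGF-beta2 and binds inhibin, stood at 1981, 2244 and 2690 normalized counts after anti-CD73, against 2142, 3040 and 2910 in controls. Its log2 fold change was -0.22 (SE 0.18), and -0.38 (limma adjusted p = 0.0516) without control replicate 1.

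**Figure D2:**
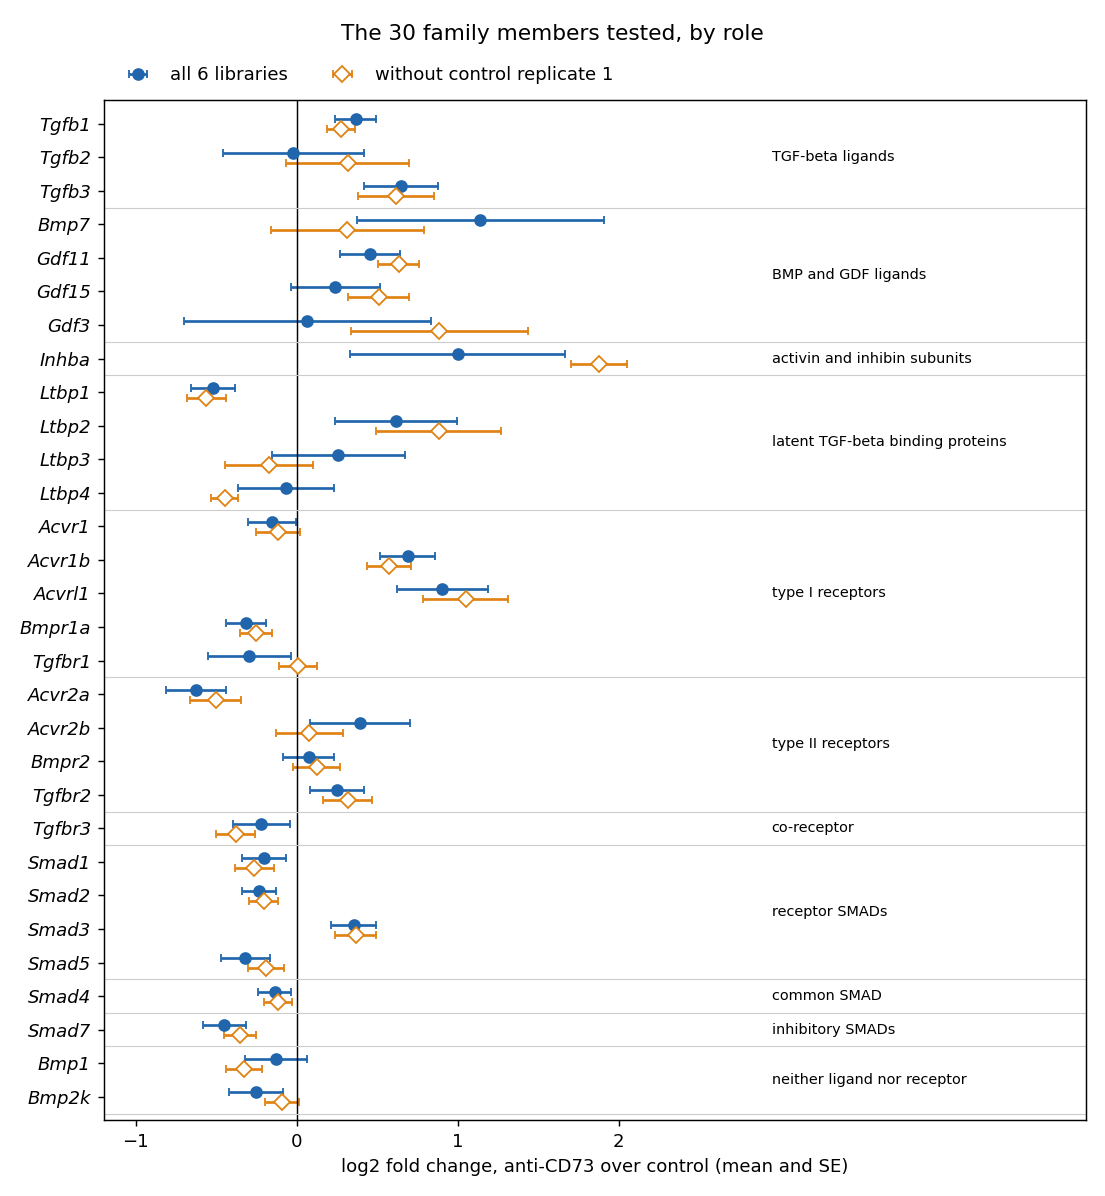
Log2 fold change of anti-CD73 over control with its standard error (x axis) for the 30 tested members, grouped by role down the page, with all 6 libraries (filled blue) and without control replicate 1 (open orange). Acvr1b, Acvrl1 and Inhba lie to the right in both fits and Ltbp1, Acvr2a and Smad7 to the left, while Tgfbr1, Tgfb2 and Ltbp3 change side.

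Of the 6 tested SMAD genes, Smad7 was lower and Smad3 higher at an unadjusted p under 0.05, beside 6.82% and 8.69% of all genes. The other 4 had log2 fold changes below 0 that did not reach that p. Smad7, which is induced by TGF-beta and blocks its receptor (ENSMUSG00000025880), stood at 576.5, 566.5 and 597.4 normalized counts after anti-CD73, against 908.8, 789.3 and 694.5 in controls. The anti-CD73 libraries lay close together and below all controls, with means of 580 ± 15.8 and 798 ± 107 (SD, n = 3 each). The log2 fold change was -0.45 (SE 0.13, limma adjusted p = 0.193), and -0.35 (adjusted p = 0.0331) without control replicate 1. Smad3, which carries TGF-beta and activin signals to DNA, stood at 823.8, 890.4 and 735.2 normalized counts after anti-CD73, against 648.8, 560.0 and 711.0 in controls. Its groups did not overlap, although anti-CD73 replicate 3 and control replicate 3 were close. The log2 fold change was 0.35 (SE 0.14, limma adjusted p = 0.291). Smad2, which shares its receptors with Smad3, stood at 815.5, 844.9 and 815.4 normalized counts after anti-CD73, against 1012, 1005 and 900 in controls. All of its anti-CD73 values were below all control values, the opposite order to Smad3, with a log2 fold change of -0.23 (SE 0.11, limma adjusted p = 0.349).

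Smad4, the partner shared by all branches, stood at 1536, 1535 and 1542 normalized counts after anti-CD73, against 1742, 1786 and 1557 in controls. The anti-CD73 libraries differed by little from one another and lay just below the lowest control (log2 fold change -0.14, SE 0.10, limma adjusted p = 0.566). Of the BMP-branch genes, Smad1 stood at 496.5, 560.1 and 572.8 normalized counts after anti-CD73, against 577.8, 719.7 and 588.2 in controls, again without overlap (log2 fold change -0.21, SE 0.14). Smad5 stood at 1148, 1058 and 1341 normalized counts after anti-CD73, against 1752, 1396 and 1293 in controls, with overlap (log2 fold change -0.32, SE 0.15, and -0.19 without control replicate 1). Smad6, the inhibitor of the BMP branch, had 9, 7 and 4 reads after anti-CD73 and 10, 1 and 3 in controls. Smad9 had 2, 6 and 1 reads after anti-CD73 and 2, 1 and 1 in controls.

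Most untested entries were BMP and GDF ligands, at 17 of the 23. Those with no read in any library were Inha, Gdf2 and 1 of the Gdf1 entries. These ligands had too few reads to compare between the groups. Gdf9 had 33 reads over the anti-CD73 libraries and 19 over the controls. Gdf5 had 23 and 20 reads in the same order. Bmp5 had 28, 4 and 5 reads after anti-CD73 and 3, 5 and 3 in controls, so that 1 library held most of them. Bmp5 is a ligand of the branch that uses SMAD1 and SMAD5. Bmp8a had 12 reads over the anti-CD73 libraries and 8 over the controls. Its near-identical copy Bmp8b had 3 and 1, and reads between them may be split. The other BMP and GDF ligands had at most 4 reads in any library. Among them, the BMP ligand genes Bmp2 and Bmp4 had 4 and 0 reads over the anti-CD73 libraries and 1 each over the controls. The receptor genes Acvr1c and Bmpr1b had at most 2 reads in a library. The remaining pair of tested entries, Bmp1 and Bmp2k, had log2 fold changes of -0.13 (SE 0.19) and -0.25 (SE 0.17), with overlap between groups. Bmp1 had -0.33 (limma adjusted p = 0.0645), with groups apart, and Bmp2k -0.091 without control replicate 1.

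Members differed in how far their libraries spread within a group. The median SD of the log2 values was 0.185 among the anti-CD73 libraries and 0.274 among the controls, against 0.126 and 0.282 over all genes tested. Control replicate 1 differed from the mean of the other controls by 0.414 in the median of the members' absolute log2 differences, where control replicates 2 and 3 differed from each other by 0.221. Over all genes tested these medians were 0.424 and 0.15. It lay over 1 log2 unit above them for Inhba (2.64), Gdf3 (2.46) and Tgfb2 (1.02), and over 1 below for Bmp7 (-2.48), Ltbp3 (-1.29) and Ltbp4 (-1.15). These 6 are 20% of the tested members, against 14.2% of all genes tested. Without that library, groups did not overlap for 19 of the 30 members, where this held for 53.5% of all genes.

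**Figure D3:**
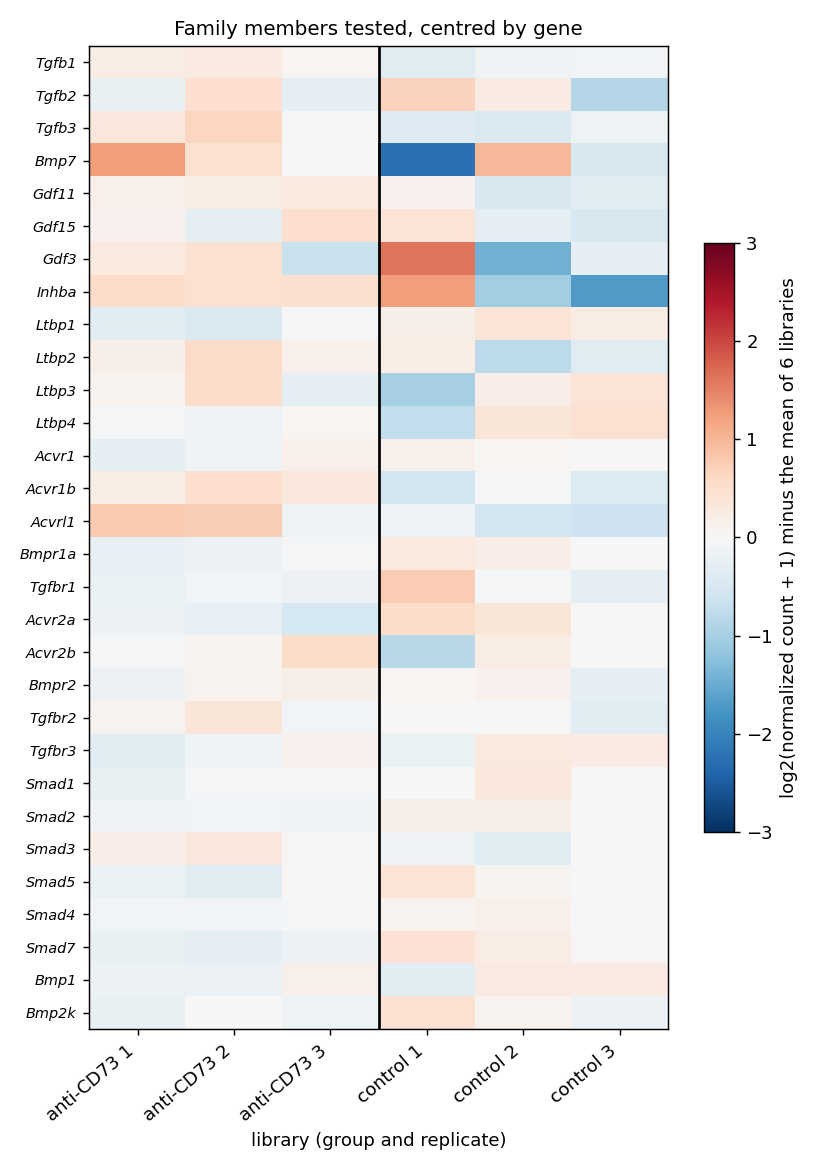
Log2(normalized count + 1) of each tested member (rows, in the order of their roles) minus its mean over the 6 libraries (colour), in the anti-CD73 libraries (left) and the controls (right). Control replicate 1 stands out from control replicates 2 and 3 in Inhba, Gdf3, Bmp7, Ltbp3 and Ltbp4.

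Genes that bind, activate or restrain these ligands outside cells gave mixed results, and the counts of those at an unadjusted p under 0.05 stand beside 15.5% of all genes tested. Of 14 tested antagonists and binding proteins, 2 were higher and 0 lower at an unadjusted p under 0.05, with a median log2 fold change of 0.28, and none passed adjustment over all genes in limma (3 higher and 0 lower without control replicate 1, where 22.2% of all genes passed). Nrros, which tethers latent TGF-beta1 on macrophages and microglia, stood at 1225, 1314 and 728 normalized counts after anti-CD73, against 620, 286 and 236 in controls. All anti-CD73 values were above all control values, and the log2 fold change was 1.60 (SE 0.38, limma adjusted p = 0.166; DESeq2 adjusted p = 0.00659). The value was 2.01 (limma adjusted p = 0.00181) without control replicate 1. Macrophage markers, given above, lay higher in the same libraries, and their part in the Nrros result was not tested. Fstl1, a secreted glycoprotein of the follistatin family, had a log2 fold change of 0.34 (SE 0.13), and 0.40 (limma adjusted p = 0.0383) without that control. Fst, the follistatin that binds activin, had 0.46 (SE 0.42), and 0.99 (limma adjusted p = 0.004) without control replicate 1. Of 13 tested activators of latent TGF-beta, 2 were higher and 0 lower, with a median of 0.0014 (3 and 1 past adjustment without control replicate 1). These were the gelatinase gene Mmp9 (log2 fold change 1.00, SE 0.28) and the thrombospondin gene Thbs1 (1.24, SE 0.52). DESeq2 gave these genes adjusted p-values of 0.0201 and 0.298. Mmp9 and Thbs1 had 0.94 (limma adjusted p = 0.0402) and 1.85 (adjusted p = 0.00332) without control replicate 1. The 10 neutrophil markers took 0.0995, 0.122 and 0.0692% of reads after anti-CD73, against 0.0445, 0.0612 and 0.0538% in controls. Of 8 tested, 6 had log2 fold changes above 0 and 2 below, and their part in the Mmp9 result was not tested. Thbs1 stood at 30269, 30945 and 21137 normalized counts after anti-CD73, against 26640, 10723 and 5283 in controls, so that the groups overlapped through control replicate 1. Of 6 tested family genes outside the symbol rule, 1 was higher at that threshold, the BMP co-receptor gene Rgma (0.64, SE 0.23). Rgma had 0.37 (limma adjusted p = 0.0301) without control replicate 1. Inhbe had a log2 fold change of 0.64 (SE 0.43) and the endoglin gene Eng 0.16 (SE 0.11).

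Of 25 tested regulators inside the cell, 18 had log2 fold changes below 0, with a median of -0.19. Over all 12262 genes tested, 6065 lay below 0 and the median was 0.0039. At an unadjusted p under 0.05 there were 2 lower and 0 higher, where 6.82% of all genes were lower and 8.69% higher. In 8, where 12% of all genes did so, all anti-CD73 libraries lay below all controls. None passed adjustment in limma with all libraries, and 6 fell without control replicate 1, where 10.3% of all genes fell. These included Fkbp1a (adjusted p = 0.0231), Strap (0.0427) and Ski (0.0082). Fkbp1a, the immunophilin that holds type I receptors inactive, stood at 4797, 4410 and 4643 normalized counts after anti-CD73, against 5982, 5826 and 5531 in controls. The libraries of each group lay close together and apart from the other group (log2 fold change -0.32, SE 0.10, limma adjusted p = 0.206; DESeq2 adjusted p = 0.0413). Strap, which assists SMAD7 at the receptor, had a log2 fold change of -0.38 (SE 0.13), and the SMAD repressor gene Ski -0.31 (SE 0.14).

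Genes known as TGF-beta targets differed in both directions. Of 31 tested, 8 were higher and 6 lower at an unadjusted p under 0.05, where 8.69% of all genes were higher and 6.82% lower, and the median log2 fold change was 0.14. None passed adjustment over all genes in limma. The higher genes were Fn1, Tgfbi, Acta2, Angptl4, Col3a1, Col1a2, Thbs1 and Timp3. The fibronectin gene Fn1 stood at 870, 1107 and 593 normalized counts after anti-CD73, against 316, 334 and 266 in controls. Its log2 fold change was 1.45 (SE 0.23, limma adjusted p = 0.141), and DESeq2 gave an adjusted p of 6.57e-06. Tgfbi, a matrix protein gene named for its induction by TGF-beta, had 1.24 (SE 0.35), the smooth muscle actin gene Acta2 0.77 (SE 0.18) and Angptl4 0.45 (SE 0.12). Their DESeq2 adjusted p-values were 0.0234, 0.00962 and 0.0266 in the same order. DESeq2 did not call Col3a1, Col1a2, Thbs1 or Timp3 (adjusted p from 0.147 to 0.298). Fibroblast markers took 0.0456 to 0.0528% of reads after anti-CD73 and 0.0338 to 0.0414% in controls, with 7 of 10 tested above 0 and none at 0 in all libraries. Both lists hold Acta2, Postn and the collagen genes, and the part of fibroblasts in this result was not tested. All 14 macrophage markers, given above, also had log2 fold changes above 0 (median 0.82), and their part here was not tested.

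Those lower included genes known to respond to TGF-beta within hours, with Smad7 among them. Klf10, a zinc finger gene first described as TGF-beta inducible, stood at 1491, 1128 and 1511 normalized counts after anti-CD73, against 2889, 2142 and 2312 in controls. Every anti-CD73 library was below every control, with a log2 fold change of -0.83 (SE 0.17, limma adjusted p = 0.149; DESeq2 adjusted p = 0.00207). Tsc22d1, another gene first found by its response to TGF-beta, stood at 1975, 2261 and 2341 normalized counts after anti-CD73, against 3332, 3023 and 3119 in controls. Its log2 fold change was -0.53 (SE 0.11), and DESeq2 gave an adjusted p of 0.00297. The 3 others below 0 at that p besides Smad7 were the connective tissue growth factor gene Ctgf (-1.07, SE 0.33), Snai1 (-0.46, SE 0.15) and Cyr61 (-0.31, SE 0.13). DESeq2 called neither these nor Smad7 (adjusted p from 0.0611 to 0.24). On the same list, Skil (0.09, SE 0.31), Pmepa1 (0.65, SE 0.55) and Snai2 (0.66, SE 0.465) lay above 0. Junb (-0.25, SE 0.15) and Ldlrad4 (-0.33, SE 0.29) lay below it, and none of these reached that p. Snai2 had 1.22 (limma adjusted p = 0.00806) and Junb -0.40 (adjusted p = 0.00734) without control replicate 1. Skil had 0.45, Pmepa1 1.11 and Ldlrad4 -0.41 in that fit, without a call. Without control replicate 1, limma called 6 of the 31 target genes higher and 7 lower, where it called 11.9% of all genes higher and 10.3% lower. Fn1 (1.47, limma adjusted p = 0.00392), Klf10 (-0.71, adjusted p = 0.00696) and Tsc22d1 (-0.49, adjusted p = 0.00724) were among them. So were Tgfbi (1.58, limma adjusted p = 0.00398), Acta2 (0.825, adjusted p = 0.0109) and Angptl4 (0.53, adjusted p = 0.00485). Ctgf (-1.37, limma adjusted p = 0.0076) and Snai1 (-0.52, adjusted p = 0.0232) were called too, and Cyr61 (-0.24, adjusted p = 0.111) was not. Col3a1 had 0.599 with all libraries and 0.396 (limma adjusted p = 0.0806) in that fit. Of 8 tested BMP targets, Smad7 alone reached an unadjusted p under 0.05, beside 15.5% of all genes. The inhibitor of DNA binding gene Id1, a direct BMP target, had a log2 fold change of -0.33 (SE 0.37), and -0.80 (limma adjusted p = 0.00386) without control replicate 1. Its relatives lay above 0, with Id2 at 0.07 and Id3 at 0.36 (SE 0.25), and at 0.69 (limma adjusted p = 0.0481) and 0.60 (adjusted p = 0.0505) without that library. In that fit 1 of the 8 BMP targets was called higher and 2 lower.

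**Figure D4:**
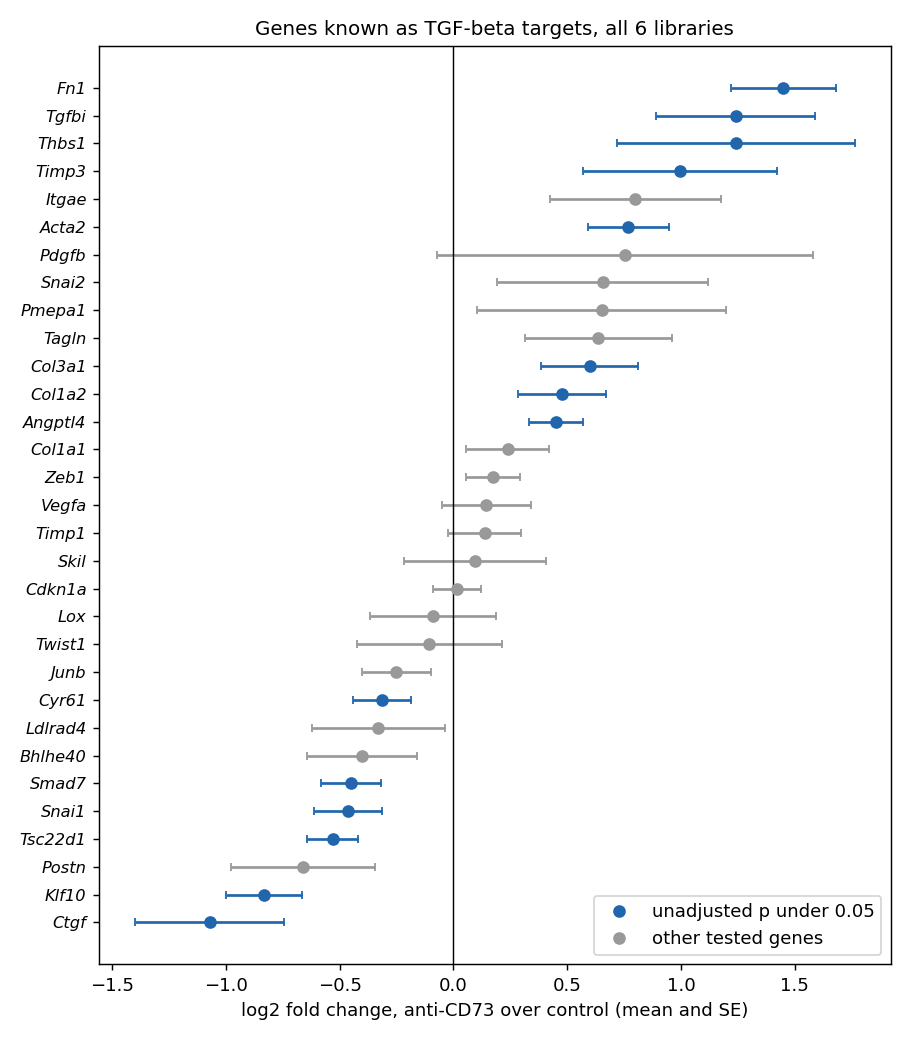
Log2 fold change of anti-CD73 over control with its standard error (x axis) for the 31 tested genes known as TGF-beta targets, ordered by value, with all 6 libraries. The 14 genes at an unadjusted p under 0.05 (blue) lie on both sides of 0, Fn1 at 1.45 on the right and Ctgf at -1.07 on the left.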

How the data were processed

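The deposited values are normalized counts (a signal), which the authors made with DESeq, per the labels. The submitters' processing notes name Bowtie 0.12.7 and mm10. The sources used here name no counter, annotation release or strand setting, nor how multiply matched reads were handled, so levels of near-identical or overlapping genes are uncertain. Columns were matched to samples by their descriptions, and replicate numbers come from the titles. Every value (100%) was a whole multiple of 1 read within 0.01, which gave back the reads.

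Limma-trend (limma 3.58.1 in R 4.3.3) was fitted to log2(normalized count + 1) over the 12262 genes with a mean of at least 10, two-sided, without a replicate block, with Benjamini-Hochberg adjustment at 0.05. The added 1 shrinks the fold changes of low genes. Values on this scale can still exceed those of edgeR and DESeq2, as for Bmp7 (1.14 against 0.78 and 0.74). The reads of the same genes were also tested with edgeR 4.0.16 (quasi-likelihood, TMM) and DESeq2 1.42.0. Further alternatives were pseudocounts (0.5 or 8), filters (none, or a mean of at least 50), TMM or quantile scaling, robust empirical Bayes, a replicate block and each library left out. EdgeR and DESeq2 without control replicate 1 were chosen after seeing the data.

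The members and gene lists were chosen with earlier results of these data known. Values are given per library for members with an unadjusted p under 0.05 or groups apart, for a fixed set of core genes and for the most abundant member of each role. From each list outside the family up to 6 genes of smallest p were named. Fst, Id2 and the TGF-beta targets beyond those 6 were named after their values were seen, and 1 gene of the target list is not reported here. Intervals of read counts cover counting error only. The fit was tested on simulated data. Coordinates come from RefSeq genes of GRCm38.p6, the assembly of mm10, matched by symbol. Promoters were read for 9 of 14 members looked up, and no member on chromosome 18 was among these.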

Additional observations from a re-analysis of the deposited data

How the results depend on the processing

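The count of genes past the threshold in limma was 0 with all libraries and 0 to 2724 with a library left out. With all libraries it was 595 with DESeq2 and 0 with edgeR on recovered reads. Without control replicate 1 it was 2703 with edgeR and 2679 with DESeq2. Members past it were 0 with all libraries, 0 to 7 with a library left out, and 3 with DESeq2. Without control replicate 1 they were 8 with edgeR and 10 with DESeq2. Members at an unadjusted p under 0.05 were 10, with 4 to 17 when a library was left out (4 without anti-CD73 replicate 1 or 2, 17 without control replicate 1) and 16 with edgeR without control replicate 1. Members with groups that did not overlap were 12 with all libraries and 12 to 19 with a library left out, the highest without control replicate 1. For unadjusted p and for overlap with a library left out, the share of all genes was taken only without control replicate 1. The members' median stayed between -0.12 and 0.095 in all settings. Scaling moved the median of all genes to 0.024 (TMM) or -0.029 (quantile).

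Of the 30 members, 6 changed direction in at least 1 setting, and the cause was not tested. Tgfbr1 ranged from -0.51 to 0.0085 with a library left out, and had 0.022 (edgeR) and 0.023 (DESeq2) without control replicate 1. Ltbp3 ranged from -0.17 to 0.52, with -0.13 in both. Tgfb2 ranged from -0.47 to 0.32, with 0.33 and 0.30. Ltbp4 ranged from -0.45 to 0.15 and Bmpr2 from -0.058 to 0.18. Gdf3 ranged from -0.64 to 0.89, and had -0.42 with DESeq2, -0.40 with edgeR, -0.056 with a pseudocount of 8 and -0.32 with quantile normalization.

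With the replicate block by title number, 0 members and 0 genes passed the threshold. In that fit 7 members had an unadjusted p under 0.05, and the share of all genes at that p was not taken. Same-numbered libraries correlated at 0.189, -0.096 and 0.262 in their deviations from the group means, and differently numbered ones at -0.274 to 0.187. These values do not settle whether the numbers pair libraries. The main fit had no block because the labels do not say that a number marks a shared animal, litter or day. At 10180624 to 17161679 reads per library, entries with a mean under 10 normalized counts rest on too few reads to show a difference.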
